A study of Arabidopsis thaliana with 87 samples.

Results

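The EXORDIUM family of Arabidopsis thaliana was followed through every deposited readout of a hypoxia study. The 6 genes were taken by identifier: PHI-1 (also EXL1, AT1G35140), EXO (EXORDIUM, AT4G08950), EXL2 (AT5G64260), EXL3 (AT5G51550), EXL4 (AT5G09440) and EXL5 (AT2G17230). They are 6 of the 37899 identifiers in the table of RPKM, which is reads scaled to gene length and library size. All 6 were present, and their peaks were taken from the deposited lists of open chromatin and of HRE2 binding.

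EXORDIUM proteins are secreted into the apoplast, the space of the plant cell wall. EXO is induced by brassinosteroids, the plant's growth-promoting steroid hormones, and is needed for brassinosteroid-dependent leaf growth and cell expansion. PHI-1 is named after a phosphate-induced gene of tobacco cells, and in Arabidopsis, as EXL1, it is needed for growth when carbon and energy are scarce. The genes EXL2 to EXL5 are related in sequence, and no role is stated for them here.

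The series held 87 samples in 35 groups, all of 7-day-old seedlings grown in long days on medium with sucrose. Treatments began at the end of the light period, so the 2NS, 2HS, 9NS and 9HS samples were kept in darkness. No hours of darkness were listed for 1R and 2R. The groups 2NS and 9NS had 2 h and 9 h of darkness in air, and 2HS and 9HS had the same with argon-induced hypoxia. Group 1R followed 2 h of hypoxia with 1 h of reoxygenation, and 2R with 2 h. Nuclear RNA and poly(A)+ RNA, each at 2NS, 2HS, 1R, 9NS and 9HS, came from a nucleus-tagging line carrying pUBQ10:NTF and pACT2:BirA, as did open chromatin by ATAC-seq from roots. TRAP RNA, the RNA bound to ribosomes, came at 2NS, 2HS and 2R from p35S:RPL18-FLAG, in which the 35S promoter drives a tagged ribosomal protein. Chromatin immunoprecipitation of elongating polymerase II (Ser2P), H3K4me3, H3K27me3, H3K9ac and H3K14ac used Col-0. H2A.Z was taken from pHTA11:HTA11-3XFLAG. The hypoxia-induced factor HRE2 was taken at 2HS alone from p35S:C2A HRE2-HA, which overexpresses a stabilised HRE2, and no control column goes with it. RNA, Ser2P and H3K4me3 had 3 samples a group and the other assays 2.

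Each of the 30 columns of the table is the authors' mean over a group. Reads per library were recovered from the printed digits wherever these fixed them, which was so for 146 of the 180 values of the family, and a test was possible only there. Depth per library, in M reads, was 1.05 to 16.6 (nuclear), 8.66 to 21 (poly(A)+), 2.53 to 12.4 (TRAP) and 2.69 to 20.2 (immunoprecipitations). The share of reads on protein-coding genes was 33.2% to 71.2% over the nuclear groups, 10.3% to 64.6% over poly(A)+ and 97.5% to 97.9% over TRAP. At 2NS and 2HS it was 40.5% and 33.2% in nuclear RNA and 25.1% and 34.1% in poly(A)+ RNA. A change is the log2 ratio of RPKM + 1, less that of the median gene, and "rose" and "fell" mean a limma call at an adjusted p under 0.05. Values with ± are limma's change and standard error. The labels do not say that samples of a group were separate cultures, so p-values measure the spread between these libraries. Seedlings and roots are bulk samples, in which fewer cells of a type and less RNA per cell cannot be told apart. The hypoxia labels were checked with the fermentation gene PDC1, whose TRAP RNA mean was 9.22 RPKM at 2NS and 925 RPKM at 2HS.

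The family did not move as one after 2 h of hypoxia. In the authors' means PHI-1 and EXL2 were higher in all 3 kinds of RNA, and EXL3 and EXL5 were lower in all 3. EXO was lower in poly(A)+ and TRAP RNA, and EXL4 was higher by 0.20 to 0.72 log2 units. On ribosomes the authors' means of EXL2 were 250 RPKM at 2NS and 1027 RPKM at 2HS, while those of EXL5 were 36.3 and 4.13. The change of EXL5 was the second lowest of all genes compared in poly(A)+ RNA and in TRAP RNA, at percentiles 0.0157 of 12712 genes and 0.0125 of 15992.

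**Figure D1:**
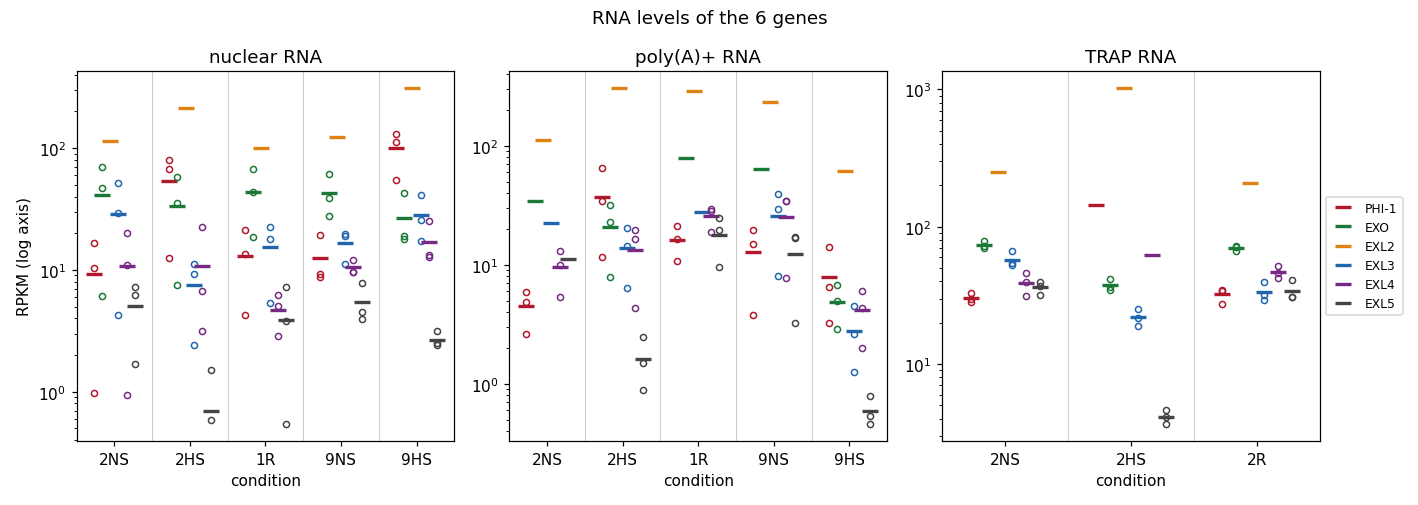
RPKM (log axis) of the 6 genes in nuclear, poly(A)+ and TRAP RNA by condition; bars are the authors' group means and circles the libraries whose reads could be resolved, with the 1 nuclear 2HS library at 0 reads for EXL5 not drawn. EXL2 has the highest bar in every group, and the EXL5 bars at 2HS lie below those of the 5 other genes.

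In TRAP RNA, EXL5 held 31.8, 39.8 and 37.3 RPKM in the 3 libraries of 2NS and 3.66, 4.12 and 4.61 RPKM in those of 2HS. Every hypoxic library was below every control library. EXL5 fell by 2.80 ± 0.15 (limma, Benjamini-Hochberg adjusted p = 1.65e-07). EXL3 went from 54.1, 52.5 and 66.5 RPKM to 25.2, 21.8 and 18.8 RPKM, again with no overlap, and fell by 1.3 ± 0.16 (adjusted p = 0.000114). EXO, the brassinosteroid-induced founder of the family, went from 72.6, 69.5 and 78.9 RPKM to 41.3, 34.4 and 36.6 RPKM and fell by 0.90 ± 0.13 (adjusted p = 0.00037). The 3 genes tested fell, where 13.2% of all genes tested fell and 13% rose. PHI-1 and EXL4 were resolved at 2NS but not at their higher means of 2HS, and EXL2 was not tested either, so this is no count over the family.

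The 3 others had no resolved libraries at 2HS in TRAP RNA and were not tested. PHI-1 held 29.6, 28.5 and 33.1 RPKM at 2NS against an authors' mean of 143 RPKM at 2HS, a change of 2.26 at percentile 98.8. EXL2 changed by 2.09 at percentile 98.5. EXL4 held 39.9, 45.8 and 31.1 RPKM at 2NS and a mean of 62.1 RPKM at 2HS, a change of 0.72. In the TRAP means 2 of the 6 genes were past 2-fold upwards and 2 downwards, against 5.95% and 2.5% of all genes.

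Nuclear RNA showed the same order for the outermost genes. PHI-1 held 0.98, 10.3 and 16.6 RPKM in the 2NS libraries and 12.4, 80.5 and 67.5 RPKM in those of 2HS. The lowest hypoxic library lay between the control libraries, and it was also the deepest of its group, as was the lowest control. PHI-1's nuclear change was 2.95 ± 0.87 with an adjusted p of 0.109 (limma), so it was not called. Libraries of one group differed up to 6.63-fold in overall scale in nuclear RNA and 4.72-fold in poly(A)+ RNA, against at most 1.07-fold in TRAP RNA. After each library was divided by its median ratio to the others, a step chosen after seeing the data, PHI-1 held 4.04, 6.41 and 12.2 RPKM against 49.2, 138 and 47.2 RPKM, with no overlap. The rescaled change was 3.25 ± 0.46 (limma adjusted p = 0.00015).

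EXL5 had 46, 33 and 28 nuclear reads in the 2NS libraries and 17, 8 and 0 in those of 2HS, with means of 5.04 and 0.693 RPKM. EXL5's nuclear change of -1.35 ± 0.72 was not called (adjusted p = 1), and counts this low limit its precision. EXL3 went from 4.26, 29.2 and 52.1 RPKM to 2.4, 9.22 and 11.1 RPKM, a change of -1.02 ± 0.83 (adjusted p = 1). Nuclear EXL2 had authors' means of 115 and 212 RPKM, a change of 1.3, while EXO and EXL4 lay near the median gene at 0.14 and 0.44. In the nuclear means 2 genes were past 2-fold upwards and 2 downwards, against 10% and 8.52% of all genes. None of the 5 genes tested was called, where 0.517% of genes rose and 0.0131% fell, and PHI-1 alone was called with rescaled libraries, where 3.22% of genes rose and 0.641% fell. The median gene itself moved by -0.42 in nuclear RNA.

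In poly(A)+ RNA, PHI-1 held 5.91, 4.87 and 2.6 RPKM at 2NS and 34.2, 64.5 and 11.6 RPKM at 2HS. Every hypoxic library was above every control library. The poly(A)+ change of PHI-1 was 2.29 ± 0.73 (limma adjusted p = 0.197) and, with rescaled libraries, 2.36 ± 0.20 (adjusted p = 2.29e-07). EXL5 had authors' means of 11.1 and 1.62 RPKM, a change of -2.46. EXL2 had means of 112 and 307 RPKM, a change of 1.19. EXO and EXL3 were at -0.96 and -0.92, at percentiles 1.25 and 1.5, just inside the 2-fold limit. In the poly(A)+ means 2 genes were past 2-fold upwards and 1 downwards, against 2.78% and 1.1% of all genes. Of the 2 genes that could be tested, none was called, where 0.385% of genes rose and 0.0367% fell, and PHI-1 was called with rescaled libraries, where 5.56% rose and 6.98% fell. The median gene moved by 0.26.

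**Figure D2:**
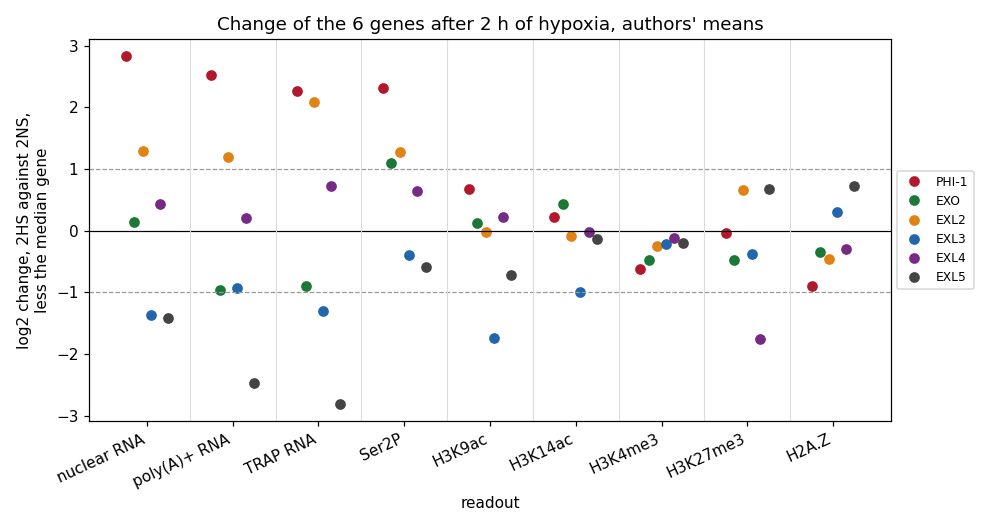
Change of the 6 genes between 2NS and 2HS in 9 readouts, from the authors' means (log2 of RPKM + 1, less the median gene, with dashed lines at 2-fold). PHI-1 lies between 2.26 and 2.83 in RNA and Ser2P and below 0.7 in the histone readouts, and EXL5 runs from -2.80 in TRAP RNA to 0.72 in H2A.Z.

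Whether the response differed between the kinds of RNA was tested directly for the 5 differences that the resolved libraries allowed. None passed, with the smallest adjusted p at 1 for libraries as deposited and 0.117 for rescaled ones (limma). The TRAP line also differs from the line of the other RNA, so assay and line cannot be told apart. The log2 ratio of TRAP to nuclear RNA in the means, relative to the median gene, was 2.01 for EXL5 in air and 0.60 in hypoxia, at percentiles 93.6 and 69.8. It was 0.49 and 1.26 for EXL2, and 0.21 and -0.86 for EXO. These ratios carry no error.

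Elongating polymerase was higher in the authors' means at PHI-1, EXL2 and EXO. The Ser2P means of PHI-1 were 16.8 RPKM at 2NS and 81.8 RPKM at 2HS, a change of 2.31 and percentile 99.7 of 26561 genes. EXL2 had means of 45 and 103 RPKM and EXO of 32.8 and 66.6 RPKM, changes of 1.28 and 1.10. EXO therefore had more polymerase in the authors' means while its TRAP RNA fell. EXL3 held 15.2, 8.76 and 18.8 RPKM and then 6.39, 11.6 and 11.3, and EXL5 20.7, 13.1 and 22.4 and then 15.6, 7.22 and 10.9. Both sets of libraries overlapped. In the Ser2P means 3 of 6 genes were past 2-fold upwards and none downwards, against 4.04% and 0.813% of all genes. PHI-1, EXL2 and EXO could not be tested in Ser2P, so their changes rest on the means alone. The 3 genes tested were EXL3, EXL5 and EXL4, the last with a change of 0.73 ± 0.37. None of them was called, and none of the 16793 genes tested was called either (limma, 0% of genes, with 703 at an unadjusted p under 0.05).

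After 9 h of hypoxia PHI-1 was still the family's most raised gene in nuclear RNA. Its libraries held 8.73, 9.3 and 19.3 RPKM at 9NS and 54.2, 113 and 131 RPKM at 9HS, with no overlap. The 9 h nuclear change of PHI-1 was 2.88 ± 0.87 (limma adjusted p = 0.0553), and 2.86 ± 0.46 with rescaled libraries (adjusted p = 0.000782). EXL2 had nuclear means of 124 and 313 RPKM, a change of 1.32. EXL3 held 11.1, 19.7 and 18.9 RPKM and then 17.4, 25.7 and 40.8, so that its nuclear RNA was not lower at 9 h (0.67 ± 0.83, adjusted p = 0.881). EXL5 held 4.54, 3.92 and 7.87 RPKM and then 2.5, 2.41 and 3.14 RPKM, a change of -0.77 ± 0.72 (adjusted p = 0.799). In the means 2 of 6 genes were past 2-fold upwards and none downwards, against 13.1% and 12.5% of genes, and of the 5 tested none was called, where 0.695% of genes rose and 0.992% fell. Rescaled, 1 of 5 was higher, where 3.75% of genes rose and 1.7% fell.

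Poly(A)+ RNA at 9 h needs its scale stated first. Only 10.3% of the reads of the 9HS column lay on protein-coding genes, against 64.6% at 9NS, and the median gene moved by -1.75. PHI-1 held 15, 19.7 and 3.75 RPKM at 9NS and 6.45, 3.22 and 14.1 RPKM at 9HS, so the libraries overlapped and the mean was lower, while relative to the median gene the change was 1.12. EXO was lower also relative to the median gene, with means of 63.2 and 4.85 RPKM and a change of -1.71 at percentile 2.37. With rescaled libraries PHI-1 held 5.39, 5.89 and 5.3 RPKM against 21.4, 14.2 and 23 RPKM, a change of 1.62 ± 0.20 (limma adjusted p = 6.41e-06). Rescaled EXL5 and EXL3 changed by -1.22 ± 0.20 (adjusted p = 0.000176) and -0.60 ± 0.16 (adjusted p = 0.0067). With libraries as deposited none of the 4 genes tested was called, where 2.84% of genes rose and 0.428% fell. Rescaled calls covered 3 of the 4, where 19.9% of genes rose and 20.7% fell. In the means 1 of 6 genes was past 2-fold upwards and 3 downwards, against 5.26% and 8.82%.

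**Figure D3:**
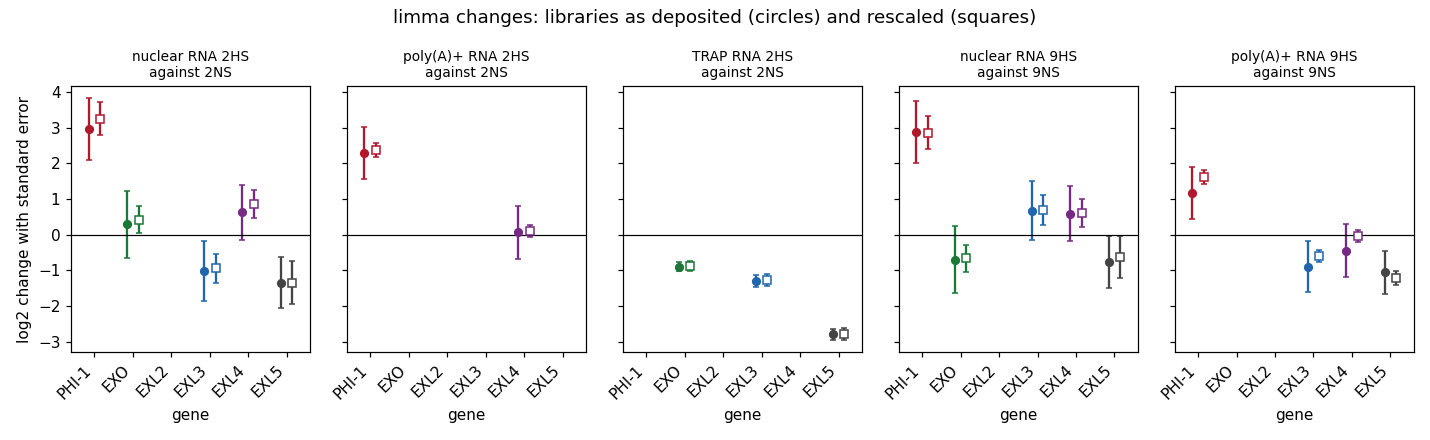
limma changes (log2, less the median gene, bars of 1 standard error) of the members that could be tested in 5 RNA comparisons, with libraries as deposited as circles and rescaled libraries as squares. The estimates lie close together, while the error of PHI-1 in poly(A)+ RNA at 2 h is 0.73 as deposited and 0.2 rescaled.

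On return to air all 6 TRAP means lay closer to 2NS than at 2HS. The comparisons of recovery with hypoxia and with 2NS share their samples with those above. In TRAP RNA after 2 h of reoxygenation EXL5 held 30.7, 41.1 and 30.7 RPKM, all above the 2HS libraries, and rose by 2.60 ± 0.15 (limma adjusted p = 2.29e-07). EXO held 66.9, 72.8 and 71.6 RPKM and rose by 0.73 ± 0.13 (adjusted p = 0.00102). Both genes therefore left the range of the hypoxic libraries. EXL3 held 31.7, 39.9 and 29.3 RPKM and its change of 0.42 ± 0.16 was not called (adjusted p = 0.0559, and 0.0107 to 0.112 over 5 other settings, of which 2 called it), so 2 of 3 genes rose, where 19.7% of all genes tested rose and 16.4% fell. PHI-1 held 34.7, 33.9 and 27.5 RPKM at 2R, against the authors' mean of 143 at 2HS. EXL2 had a mean of 207 RPKM at 2R, a change of -2.48 from 2HS. In the means 1 gene was past 2-fold upwards and 2 downwards, against 4.82% and 7.38%.

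Against 2NS, which had never been hypoxic, EXL3 was lower in TRAP RNA at 2R. Both 1R and 2R were taken later after the start of treatment than 2NS and 2HS. Past treatment and elapsed time therefore cannot be told apart in these comparisons. Its 3 libraries at 2R lay below the 3 at 2NS, and the gene fell by 0.88 ± 0.16 (limma adjusted p = 0.00892), although the call was lost without the deepest 2R library (adjusted p = 0.0519). The 4 other genes tested were not called: changes were -0.05 for PHI-1, -0.18 for EXO, 0.15 for EXL4 and -0.21 for EXL5. That is 1 of 5 lower, where 2.12% of genes fell and 2.71% rose. No member was past 2-fold in these means, against 1.41% of genes upwards and 0.65% downwards.

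After 1 h of reoxygenation PHI-1 held 4.24, 13.5 and 21.3 RPKM in nuclear RNA, a range that overlaps 2HS as deposited. The nuclear change of PHI-1 from 2HS was -2.28 ± 0.87 (limma adjusted p = 0.356), and -2.70 ± 0.46 with rescaled libraries (adjusted p = 0.00164). EXL4 went from 3.12, 6.69 and 22.6 RPKM to 5.05, 2.84 and 6.25 RPKM, a change of -1.18 (adjusted p = 0.756) and of -1.47 ± 0.39 rescaled (adjusted p = 0.0337). None of the 5 genes was called as deposited, where 0.115% of genes rose and 0.321% fell, and 2 of 5 were lower when rescaled, where 1.86% of genes rose and 2.87% fell. In the means 1 gene was past 2-fold upwards and 3 downwards, against 14.2% and 13.4%. The median gene moved by 0.46.

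EXL5 was also higher in poly(A)+ RNA after 1 h of reoxygenation than at 2HS. Its libraries held 1.49, 2.49 and 0.886 RPKM at 2HS and 24.8, 19.4 and 9.54 RPKM at 1R, with no overlap, and EXL5 rose by 2.19 ± 0.60 (limma adjusted p = 0.0351). The call was lost when any of 5 of the 6 libraries was left out, and with a pseudocount of 0.1 RPKM (adjusted p = 0.0586). PHI-1 held 21.3, 16.4 and 10.7 RPKM at 1R, a change from 2HS of -1.50 (adjusted p = 1) as deposited and -1.75 ± 0.20 rescaled (adjusted p = 8.83e-06). EXO had authors' means of 20.8 RPKM at 2HS and 79 RPKM at 1R. As deposited 1 of 3 genes rose and none fell, where 0.461% of genes rose and 0.383% fell. Rescaled, 1 rose and 1 fell, against 7.95% and 5.47%. In the means 2 of 6 genes were past 2-fold upwards and 1 downwards, against 2.6% and 2.01%, with the median gene at 0.61. Against 2NS no member was called at 1R, of 5 tested in nuclear RNA, where 0.0196% of genes rose and 0% fell, and of 2 in poly(A)+ RNA, where 0.384% rose and 0.059% fell. The 1 member past 2-fold in those means was EXL4 in nuclear RNA, at 10.7 and 4.71 RPKM, where 8.56% of genes were lower and 10% higher (poly(A)+ RNA 0.857% and 2.96%).

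Histone acetylation was resolved for all 6 genes in every library. H3K9ac and H3K14ac mark the chromatin of active genes. The largest early loss was at EXL3, whose H3K9ac went from 82.8 and 63.6 RPKM at 2NS to 20.5 and 21.6 RPKM at 2HS. EXL3 fell by 1.72 ± 0.17 (limma adjusted p = 0.000157), and by its mean it was 12th from the bottom of 26504 genes. At EXL5 H3K9ac went from 56.3 and 51.9 RPKM to 31.3 and 32.8 RPKM and fell by 0.72 ± 0.17 (adjusted p = 0.0208). That call was lost without any 1 of the 4 libraries (adjusted p from 0.0793 to 0.148). PHI-1 went from 49.4 and 42.8 RPKM to 68.4 and 77.6 RPKM, which do not overlap, with a change of 0.67 ± 0.21 (adjusted p = 0.0711). When 2NS and 2HS alone were fitted, its adjusted p was 0.0173. So 2 of 6 genes fell and none rose, where 5.09% of all genes fell and 6.6% rose.

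At 9 h acetylation changed at 4 of the 6 genes. H3K9ac at PHI-1 went from 49.1 and 37.9 RPKM at 9NS to 177 and 134 RPKM at 9HS and rose by 1.81 ± 0.21 (limma adjusted p = 8.6e-05). At EXO it went from 55.4 and 47.7 RPKM to 122 and 98.7 RPKM and rose by 1.07 ± 0.20 (adjusted p = 0.00159). At EXL3 it went from 53.5 and 57.4 RPKM to 19 and 13.8 RPKM and fell by 1.72 ± 0.17 (adjusted p = 2.86e-05). Both 9HS libraries lay above those of 9NS at PHI-1 and EXO and below them at EXL3. H3K9ac at EXL4 went from 26 and 30.7 RPKM to 49.5 and 41 RPKM and rose by 0.65 ± 0.17 (adjusted p = 0.0131), a call lost without 9NS library 1 or 9HS library 1. EXL2 and EXL5 were not called, at 0.11 ± 0.22 and -0.23 ± 0.17. That made 3 of 6 genes higher and 1 lower, where 15.1% of genes rose and 16.3% fell.

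**Figure D4:**
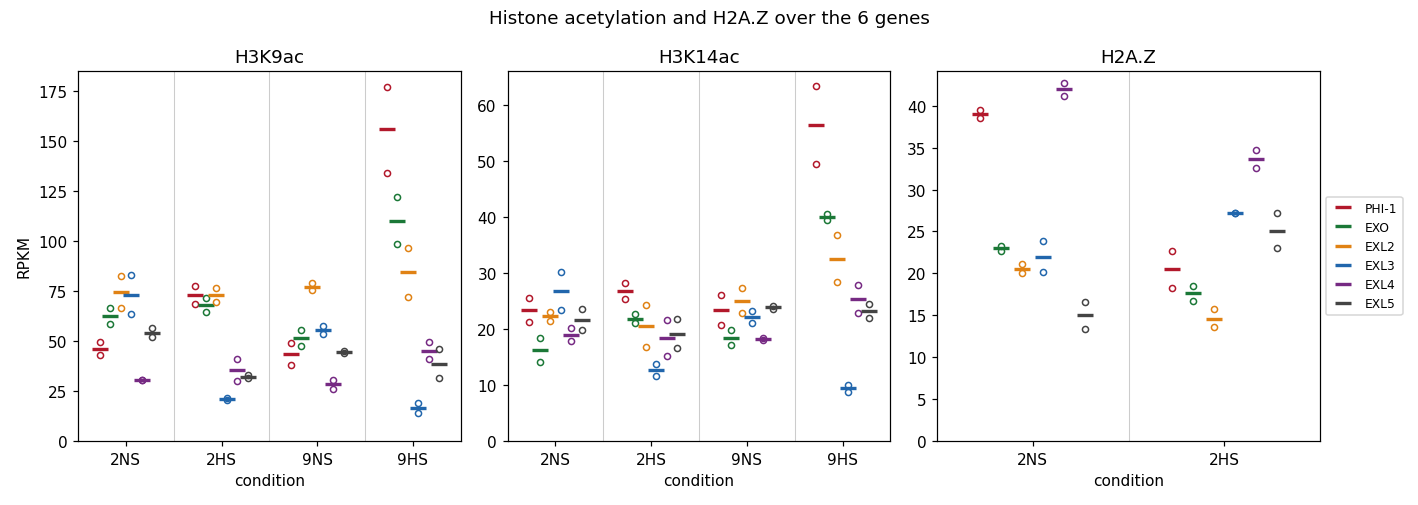
RPKM of H3K9ac, H3K14ac and H2A.Z over the 6 genes by condition; circles are single libraries and bars the authors' means. At 9HS the PHI-1 and EXO libraries lie above their 9NS libraries in both acetylation marks, and the EXL3 libraries lie below theirs.

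H3K14ac gave the same 4 calls at 9 h. PHI-1 went from 26.1 and 20.6 RPKM to 49.4 and 63.3 RPKM and rose by 1.33 ± 0.19 (limma adjusted p = 0.000766). EXO went from 19.7 and 17.1 RPKM to 39.4 and 40.5 RPKM and rose by 1.17 ± 0.14 (adjusted p = 0.000399). EXL3 went from 23.2 and 21 RPKM to 9.96 and 8.74 RPKM and fell by 1.07 ± 0.14 (adjusted p = 0.000607). The 9HS libraries again lay above those of 9NS at PHI-1 and EXO and below them at EXL3. EXL4 rose by 0.54 ± 0.16 (adjusted p = 0.0294), a call lost when the change was not centred (adjusted p = 0.0607) and without 3 of the 4 libraries. With 3 of 6 genes higher and 1 lower, the share among all genes was 17.2% higher and 5.57% lower. At 2 h EXL3 went from 23.4 and 30.1 RPKM to 11.5 and 13.8 RPKM and fell by 0.99 ± 0.14 (adjusted p = 0.0326). This was the single H3K14ac call of 6 at 2 h, where 0.211% of genes fell and 0.399% rose, and it was lost without any 1 library (adjusted p from 0.0512 to 0.137).

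EXO thus had more H3K9ac and H3K14ac at 9 h while its nuclear RNA went from 38.6, 27.7 and 60.8 RPKM to 18.9, 17.9 and 42.9 RPKM, with overlapping libraries and a change of -0.71 ± 0.94 (limma adjusted p = 0.896). EXL3 had less of both marks at 9 h while its nuclear mean was higher, 28 against 16.6 RPKM. The nuclear libraries overlapped and the change was not called (0.67 ± 0.83, limma adjusted p = 0.881). Its poly(A)+ mean was lower at 9HS, 2.79 against 25.6 RPKM, a change of -1.06 that was called with rescaled libraries but not as deposited. Whether a mark responded differently at 9 h than at 2 h was tested as a difference of the 2 changes. For PHI-1 the difference was 1.14 ± 0.30 in H3K9ac (adjusted p = 0.0591) and 1.07 ± 0.26 in H3K14ac (adjusted p = 0.143), and none of the 19 differences tested over RNA and acetylation passed.

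The other chromatin readouts gave no call at the family. H2A.Z, a histone variant found near the start of plant genes and over the body of responsive ones, went at PHI-1 from 39.5 and 38.5 RPKM to 22.7 and 18.2 RPKM. At EXL5 it went the other way, from 16.6 and 13.4 RPKM to 27.2 and 23 RPKM. Both hypoxic libraries lay below the controls at PHI-1 and above them at EXL5, but the changes of -0.89 ± 0.16 and 0.72 ± 0.17 were not called (limma adjusted p = 0.082 and 0.176). Of all genes 0.0151% rose and 0.0491% fell in H2A.Z, 17 genes in all. Both members were called when either 2HS library was left out, but so were 5503 of 26469 genes without library 1 and 275 of 26470 without library 2, and the 1 library left is then assumed to vary like the others.

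H3K4me3, a mark of active gene starts, could be tested at PHI-1 alone. It held 52.9, 47.4 and 39.3 RPKM at 2NS and 21.7, 35.9 and 34.4 RPKM at 2HS, with no overlap and a change of -0.64 ± 0.20 (limma adjusted p = 0.624). No gene was called in that comparison (0%, with 1513 of 19136 at an unadjusted p under 0.05). H3K27me3, the Polycomb mark of silent genes, was highest at PHI-1 in the family, with means of 57.8 and 57.7 RPKM, at percentile 90.4 of genes in air. EXL4 went from 37.4 and 24.3 RPKM to 3.41 and 14 RPKM without overlap, a change of -1.97 ± 0.61 (adjusted p = 0.919). No gene was called in H3K27me3 (0%, with 1064 of 26127 at an unadjusted p under 0.05). EXL4 was called without 2HS library 2 (adjusted p = 0.00981), as were 1991 of 26099 genes there.

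Within an assay RPKM values of different genes can be ordered. In TRAP RNA at 2NS the order of the authors' means was EXL2 at 250, EXO at 73.7, EXL3 at 57.7, EXL4 at 39, EXL5 at 36.3 and PHI-1 at 30.4 RPKM. The libraries of EXO and EXL3 did not overlap, while those of EXL4, EXL5 and PHI-1 overlapped one another. Within single libraries EXL5 lay above PHI-1 each time, while EXL4 lay above both in some and below both in another. The order of genes was not tested. At 2HS the order was EXL2 at 1027, PHI-1 at 143, EXL4 at 62.1, EXO at 37.4, EXL3 at 21.9 and EXL5 at 4.13 RPKM. At 2HS PHI-1 thus had the second highest mean and EXL5 the lowest. Between 2NS and 9NS, a longer night in air, no member was called in nuclear RNA (5 tested), poly(A)+ RNA (2 tested), H3K9ac or H3K14ac (6 tested in each). Few genes were called at all: 0.0613%, 0.203%, 0.498% and 0.00377% of genes rose and 0.00681%, 0.0869%, 0.404% and 0% fell. The 1 member past 2-fold in the RNA means was EXL3 in nuclear RNA, at 28.5 and 16.6 RPKM, a change of -1.17 (percentile 1.73) that was under 2-fold without centring. In nuclear RNA 2.98% of genes were that much lower and 3.15% higher, and in poly(A)+ RNA 1.51% and 3.3%. In poly(A)+ RNA the means of EXL5 were 11.1 and 12.4 RPKM and those of EXL3 22.3 and 25.6 RPKM, both untested. Relative to the median gene, which moved by 0.99, EXL5 and EXL3 changed by -0.84 and -0.80, at percentiles 2.68 and 3.28.

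Genes with the most similar pattern were found over the 13 group means of the 3 kinds of RNA, centred within each assay, among 11911 genes. Groups of an assay share a line, while their libraries differ in depth and scale, and each correlation is a description. For PHI-1 they were ERF4 (Pearson's r = 0.993), an ethylene-response-factor repressor, SZF1 (0.983), a salt-inducible zinc finger protein, AT3G23170 (0.983), CAMBP25 (0.98), a calmodulin-binding protein, and AT4G32480 (0.979). For EXL2 they included the kinase MKK9 (0.95) and the RING protein RHA2B (0.947), with AT1G66180 first (0.966). For EXL5 the transcription factor HB30 (0.966) and the arabinogalactan protein AGP17 (0.958) came first. EXO was followed by PP2A (0.943) and ARO2 (0.935), with THE1, a receptor kinase that senses the cell wall, in 5th place (0.902). EXL3 had AT3G57010 (0.889) first and COB, needed for oriented cell expansion, second (0.878), and EXL4 had the proteasome subunit RPT3 (0.936) first. Among the members themselves r was 0.88 for PHI-1 with EXL2, 0.73 for EXO with EXL5 and -0.86 for PHI-1 with EXL5.

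HRE2 is an ethylene response factor of group VII, whose members are degraded in the presence of oxygen. In the 2HS samples of the stabilised line the authors' HRE2 means ran from 14.3 RPKM at EXO to 37.9 RPKM at EXL2, against a median gene at 10.7 RPKM. PHI-1 held 34 and 14.8 RPKM in the libraries and EXL2 57.4 and 18.5 RPKM. At these genes the spread between libraries was about as wide as that between the means of the 6 genes. It was narrower at EXO, with 18.1 and 10.6 RPKM, and at EXL3, with 34.4 and 26 RPKM. Of the 4721 HRE2 peaks, 7 had a member as the nearest gene, at 4 of the 6 genes, where 14% of protein-coding genes had a peak. PHI-1 had a peak at chr1:12851847-12852002 (TAIR10), at -59 bases from the start and in the promoter class of the deposited annotation, and one in an exon at chr1:12852544-12852699. EXL2 had one in the promoter class at chr5:25702911-25703066, at -661 bases from the start, and one in an exon at chr5:25704478-25704633. EXL5 had both its peaks in exons, at chr2:7495129-7495284 and chr2:7495585-7495740, and EXL4 had an intergenic peak at chr5:2935765-2935920, at -2351 bases from the start. EXO and EXL3 had none, although the HRE2 mean of EXL3 was 30.2 RPKM.

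Open chromatin lists from roots held 14398 peaks at 2NS, 27219 at 2HS, 38958 at 1R, 27065 at 9NS and 21438 at 9HS. Because their lengths differ, a peak present in one list and not in another shows no change. Peaks were nearest to a member for 3 genes at 2NS (EXO, EXL2 and EXL3) and for all 6 in the 4 other lists, where 26.9% of protein-coding genes had one at 2NS and 40.3% to 59.6% elsewhere. The HRE2 promoter peak of PHI-1 overlapped an open region listed at 2HS, 1R, 9NS and 9HS, and that of EXL2 one listed at 2HS, 1R and 9HS. Overlapping peaks of different lists were joined into regions, so a region can be wider than the peaks of any single list. EXO had a peak in every list within chr4:5738654-5739373, upstream of its start, and within chr4:5740029-5740338, near the start. In the latter region a 2HS peak (chr4:5740059-5740325) and a 1R peak (chr4:5740207-5740338) covered the start. The peaks at 2NS, 9NS and 9HS lay upstream of it, at -116, -109 and -115 bases. EXL3 had a peak in every list within chr5:20941152-20941550, upstream of the start, and within chr5:20939655-20940070, in an exon. EXL3 also had a peak in every list further upstream, within chr5:20942888-20943555. That span is the 9NS peak of 667 bases, and the peaks of the other lists there were 124 to 147 bases wide. EXL2 had a peak in every list within chr5:25702531-25702854, upstream of its start. PHI-1, EXL4 and EXL5 had no region that was in every list.

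**Figure D5:**
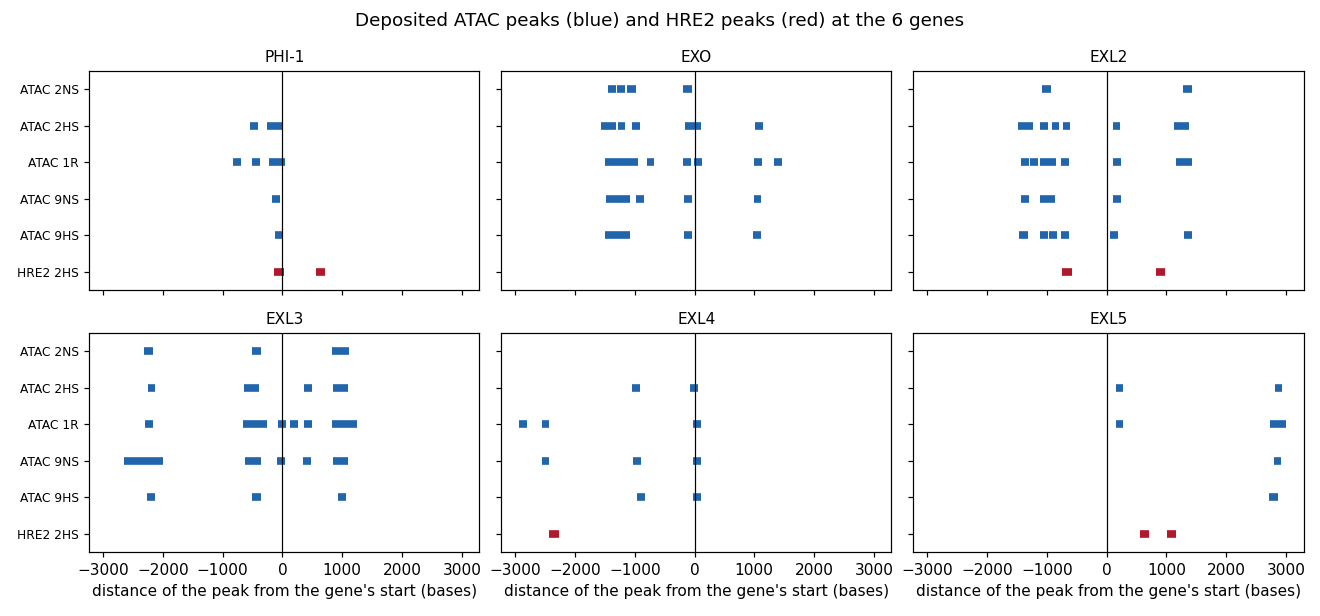
Deposited ATAC peaks from roots (blue) and HRE2 peaks (red) by distance in bases from the start of each gene, with 1 row per list. PHI-1 has an HRE2 peak across the start and another after it. EXL2 has an HRE2 peak before the start and another after it. The ATAC 2NS row is empty for PHI-1, EXL4 and EXL5.

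Genes of related pathways were taken from lists of known brassinosteroid and low-carbon genes. These lists were chosen with earlier results of these data known, so their counts beside the share of all genes are a description. Of 5 brassinosteroid growth genes studied together with EXO, the median TRAP change at 2 h was -0.69, where the median of all genes is 0. In TRAP RNA 2 of the 3 tested fell, where 13.2% of all genes fell and 13% rose. They were the cell wall protein gene AGP4 from 23.8 to 14.8 RPKM (limma adjusted p = 0.0324) and the wax synthesis gene KCS1 from 65.9 to 30.3 RPKM (adjusted p = 0.000677). The expansin EXPA5, which loosens cell walls, had means of 58.4 and 19.4 RPKM, and the highest of the list, the wall-associated kinase WAK1, 1.3 and 2.1 RPKM (adjusted p = 0.0886). The median was -0.36 in nuclear RNA and -0.51 in poly(A)+ RNA, with no call in either.

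Of 13 genes for brassinosteroid synthesis, breakdown and signalling, 11 passed the filter in TRAP RNA, with a median change of -0.34. The synthesis genes DWF4 and BR6OX2 and the breakdown gene BAS1 fell, 3 of 6 tested against 13.2% of all genes, with means of 5.46 and 2.59, 3 and 1.07, and 8.04 and 4.2 RPKM. The lowest was CPD, also of synthesis, at 45.9 and 21.9 RPKM, and the highest the co-receptor BAK1, at 22.8 and 25.3 RPKM. Both were untested. H3K9ac at 2 h fell at 5 of the 13 (CPD by 1.37, DWF4 by 1.28, BR6OX2 by 1.79, ROT3 by 0.87 and BR6OX1 by 0.71) and rose at BAK1 (limma adjusted p at most 0.0259), against 5.09% and 6.6% of all genes. At 9 h it fell at 7 and rose at 1, against 16.3% and 15.1%.

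The 15 low-carbon and dark genes, in whose conditions PHI-1 is known to act, were higher on ribosomes by their median. The TRAP median was 0.90 over the 14 that passed the filter, 5 were at least 2-fold higher and none lower, and 3 of 6 tested rose, namely DIN4, BCAT2 and bZIP63, against 13% of all genes. SEN1, induced in senescence and darkness, had the highest change, with means of 30.9 and 176 RPKM, and bZIP53 the lowest, at 18.4 and 11.8 RPKM (limma adjusted p = 0.0813). At 2R their median against 2HS was -1.27, and 4 of 6 tested fell, against 16.4% of all genes. The median in nuclear RNA at 2 h was 0.47 and in poly(A)+ RNA 0.25, with no call. H3K9ac at 9 h fell at 11 of the 15 and rose at 1, where 16.3% of all genes fell and 15.1% rose. At 9 h the list's median was -0.49 in nuclear RNA, with 6 genes at least 2-fold lower and 2 higher, and -0.65 in poly(A)+ RNA, with 5 lower and 0 higher.

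Markers of cell types were also compared at 2 h. The median TRAP change was -0.61 for 3 photosynthetic genes of the shoot (LHCB1.3, RBCS1A and LHCB2.1), -0.57 for root hair genes, of which 1 of 3 passed the filter, 0.21 for 2 endodermis genes and 0.01 for 2 guard cell genes. In nuclear RNA they were 0.19, 0.00, 0.08 and -0.80, and in poly(A)+ RNA 0.09, -0.67, 0.07 and -0.12. The guard cell gene FAMA had nuclear means of 7.87 and 1.72 RPKM, a change of -1.28. In poly(A)+ RNA at 9 h the photosynthetic genes were all at least 2-fold lower, with LHCB2.1 at 2070 RPKM in 9NS and 12 RPKM in 9HS, and their part in the members' values there was not tested. Of the remaining family genes, EXL6 was listed at 0 in every RNA column, and EXL7 fell in TRAP RNA from a mean of 2.06 to 0.516 RPKM, a change of -0.95 (limma adjusted p = 0.00637), and rose by 1.19 at 2R (adjusted p = 0.00136).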

How the data were processed

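The authors deposited 1 table of RPKM, in which each column is a group's mean, and 6 HOMER peak lists from combined files, per the file headers, with a peak score (0 for every HRE2 peak). Per the submitters' processing notes Bowtie2, TopHat2 and HOMER were used with TAIR10, with versions, roles and strandedness not given in the sources used here. Overlapping genes are therefore uncertain. Whole reads per library were recovered from the printed digits and RefSeq gene lengths (37746 of 37899 identifiers matched), and checked on simulated data. Values with several solutions, mostly high ones, were left untested. Recovered libraries carry no replicate number and are numbered by depth. limma 3.58.1 (R 4.3.3) with a variance trend was fitted to log2(RPKM + 1) over all groups of an assay, for protein-coding genes that averaged 1 RPKM or more in the assay, with changes centred on the median gene of the authors' means, and Benjamini-Hochberg adjustment over all genes tested at 0.05. Counts of recovered reads entered no count model. Rescaling libraries, and testing 9 h against 2 h, were chosen after seeing the data. The members, lists and markers were chosen with earlier results of these data known. Named beyond the members were the 5 genes most correlated with each, and the highest and lowest genes of each list. Python 3.11.15 with pandas 2.3.3 and numpy 2.4.6 did the rest.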

Additional observations from a re-analysis of the deposited data

How the results depend on the processing

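Members called by limma with libraries rescaled numbered 1 in nuclear RNA at 2 h, 1 at 9 h and 2 at 1R against 2HS, and 1, 3 and 2 in the same comparisons of poly(A)+ RNA, against 0, 0, 0, 0, 0 and 1 as deposited. A pseudocount of 0.1 RPKM called 1 in nuclear RNA at 2 h and 0 in poly(A)+ RNA at 1R against 2HS. In poly(A)+ RNA at 9 h 1 was called without the filter, where 8228 of 21196 genes were called, and 3 without centring, all lower, as were 9228 of 10521 genes. With the 2 groups alone 1 was called in nuclear RNA at 9 h and 0 in H3K14ac at 2 h. Leaving out 1 library gave 0 to 1 calls in nuclear RNA at 2 h, poly(A)+ RNA at 2 h and at 1R against 2HS, TRAP RNA at 2R against 2NS and H3K27me3, 1 in H3K9ac at 2 h, 0 in H3K14ac at 2 h and 0 to 2 in H2A.Z. The nuclear PHI-1 call at 2 h appeared without 2HS library 1 (adjusted p = 0.0156), and the poly(A)+ one without 2HS library 3 (adjusted p = 0.0391).

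Members at least 2-fold apart numbered 5 in poly(A)+ RNA at 2 h with a pseudocount of 0.1 RPKM, and 1 in H3K14ac at 2 h with that pseudocount, without centring or with equal totals. They numbered 2 in poly(A)+ RNA at 9 h with equal totals, 4 at 1R against 2NS without centring, 0 in nuclear RNA of 9NS against 2NS without centring, and 2, 3 and 2 in poly(A)+ RNA of 9NS against 2NS with that pseudocount, without centring and with equal totals. Without centring PHI-1 changed by -0.63 in poly(A)+ RNA at 9 h. The cause was not tested in any of these. Counts of all genes called moved by over 1.5 times in 10 of 23 comparisons with rescaled libraries, in 9 of 23 without centring and in 11 of 23 without the filter. In nuclear RNA at 2 h 590 genes were called with rescaled libraries and 2202 without the filter, against 81, and in poly(A)+ RNA at 9 h 4272 against 344.

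No paired analysis was possible because the recovered libraries carry no replicate number. Peak overlap within 1000 bases of a gene and promoter motifs were not run. Depth limits EXL5 in nuclear RNA, where 2HS libraries held 0 to 17 reads. The 2 libraries of a group in most chromatin assays limit every acetylation call. In both acetylation marks at 9 h, leaving out 1 library lost some member calls and added others.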
